A study of Mus musculus with 4 samples.

Results

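The mitochondrial carriers are a family of transport proteins, most of them in the inner mitochondrial membrane. They were examined here in the aorta of knockout (KO) mice that lack GGPPS and of wild-type (WT) mice. The family was taken as every gene whose symbol is Slc25a followed by a number, together with the uncoupling protein genes Ucp1, Ucp2 and Ucp3, which belong to it by sequence. This gave 50 genes of the 24346 rows in the deposited files. There were 2 KO libraries and 2 WT libraries, all from C57BL/6 aorta at 3 weeks of age. Each library is titled as male and female aorta, and the labels give neither the number of animals pooled nor the cells in which the GGPPS gene, Ggps1, was deleted. Its product, geranylgeranyl diphosphate synthase, makes the lipid that is attached to small GTPases. Libraries were named KO 1, KO 2, WT 1 and WT 2, and the numbers pair nothing.

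Inner membrane carriers move nucleotides, phosphate, metabolic intermediates, amino acids, cofactors and iron between cytosol and matrix, each exchanging or importing a small set of substrates. They are encoded in the nucleus, made in the cytosol and inserted by a dedicated import route. Several come as paralogs for one substrate class that differ by tissue, such as the muscle type adenine nucleotide translocase Slc25a4 and its paralog Slc25a5 of dividing cells. Uncoupling proteins are relatives of these transporters. The best known, Ucp1, lets protons back into the matrix in brown fat.

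Levels were read as FPKM (fragment counts adjusted for the length of the transcript and the size of the library). Ggps1 had 1.18 and 1.07 FPKM in KO libraries, against 8.96 and 10.6 FPKM in WT libraries, a log2 fold change of -2.34 ± 0.13 (SE; limma, adjusted p = 3.5e-09), which fits the genotype labels. FPKM summed to 611767 and 632918 over all genes in KO libraries, against 515927 and 520478 in WT libraries. Fragment counts were not given, so depth is unknown. Elastin (Eln), which aortic cells use heavily, is listed at 0 in the 4 libraries, so a 0 is given only as a listed value. Of markers for contractile smooth muscle, 10 of 10 were lower in KO libraries, with summed levels of 4048 and 5338 FPKM, against 15854 and 17768 FPKM in WT libraries. Endothelial markers were lower for 7 of 8 tested. Macrophage markers were higher for 9 of 10, general leukocyte markers for 10 of 10 and cycling-cell markers for 10 of 10. For comparison, 35.2% of all genes tested were higher and 30.6% lower. Adgre1, Fcgr1, Ptprc, Cd53, Itgb2, Rac2, Bub1 and Cenpf, kept in these marker counts, reached 1 FPKM only in KO libraries. Testing needed 1 FPKM in at least 2 libraries, so these genes had to be higher in KO. In whole tissue, fewer cells of a type and less RNA per cell cannot be told apart.

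KO aortas held a differently composed set of carrier transcripts. The uncoupling protein Ucp2, the mitochondrial iron importer Slc25a37, the pyrimidine nucleotide carrier Slc25a33 and the uncoupling protein relative Slc25a30 were the carriers that rose by at least 1 on the log2(FPKM + 1) scale. The calcium-regulated ATP-Mg/phosphate carrier Slc25a23, the less characterised Slc25a34 and the basic amino acid carrier Slc25a29 fell by at least 1. Which carriers pass that size depends on the scale. With equal FPKM totals Slc25a33 was at 0.85 and Slc25a30 at 0.93, while Slc25a35, Slc25a42 and Slc25a47 were at -1.10, -1.08 and -1.11. With a pseudocount of 0.1 the low gene Slc25a13 was at 2.62, and Slc25a35, Slc25a42 and Slc25a47 were at -1.14, -1.08 and -1.17. With a pseudocount of 5, Slc25a33, Slc25a30 and Slc25a29 were at 0.86, 0.61 and -0.83. Of the 50 genes, 40 reached 1 FPKM in at least 2 libraries and were tested. Of these 40, 17 were higher in KO (42.5%, against 35.2% of all 12314 genes tested) and 12 were lower (30%, against 30.6% of all genes tested), at an adjusted p under 0.05 by limma. One of the 17, Slc25a13, passed the filter on low values only through its KO libraries; without it 16 of 39 were higher (41%). The share of carriers called was therefore not far from that of genes at large. A log2 change of at least 1 was called for 17.5% of tested carriers and for 18.5% of all tested genes. The KO and WT libraries did not overlap for 39 of the 40 carriers, against 83.1% of all tested genes. Slc25a13 is among the 39, and its separation was fixed by the filter. The carrier that did overlap was the glycine carrier Slc25a38, with 25.9 and 22.9 FPKM in KO libraries, against 24.1 and 22.1 FPKM in WT libraries. The median log2 fold change was 0.23 over the tested carriers and 0.03 over all tested genes. The median size of the change, without its sign, was 0.66 for carriers and 0.45 for all tested genes. Slc25a13 is kept in these medians and in the counts with equal totals that follow. With the 4 files scaled to equal FPKM totals, 12 carriers were higher (30%, against 25.3% of all genes tested) and 16 lower (40%, against 45.3%), with a median of -0.02. That scaling also moves the median over all genes, to -0.20, and lowers the fold changes below with it.

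**Figure D1:**
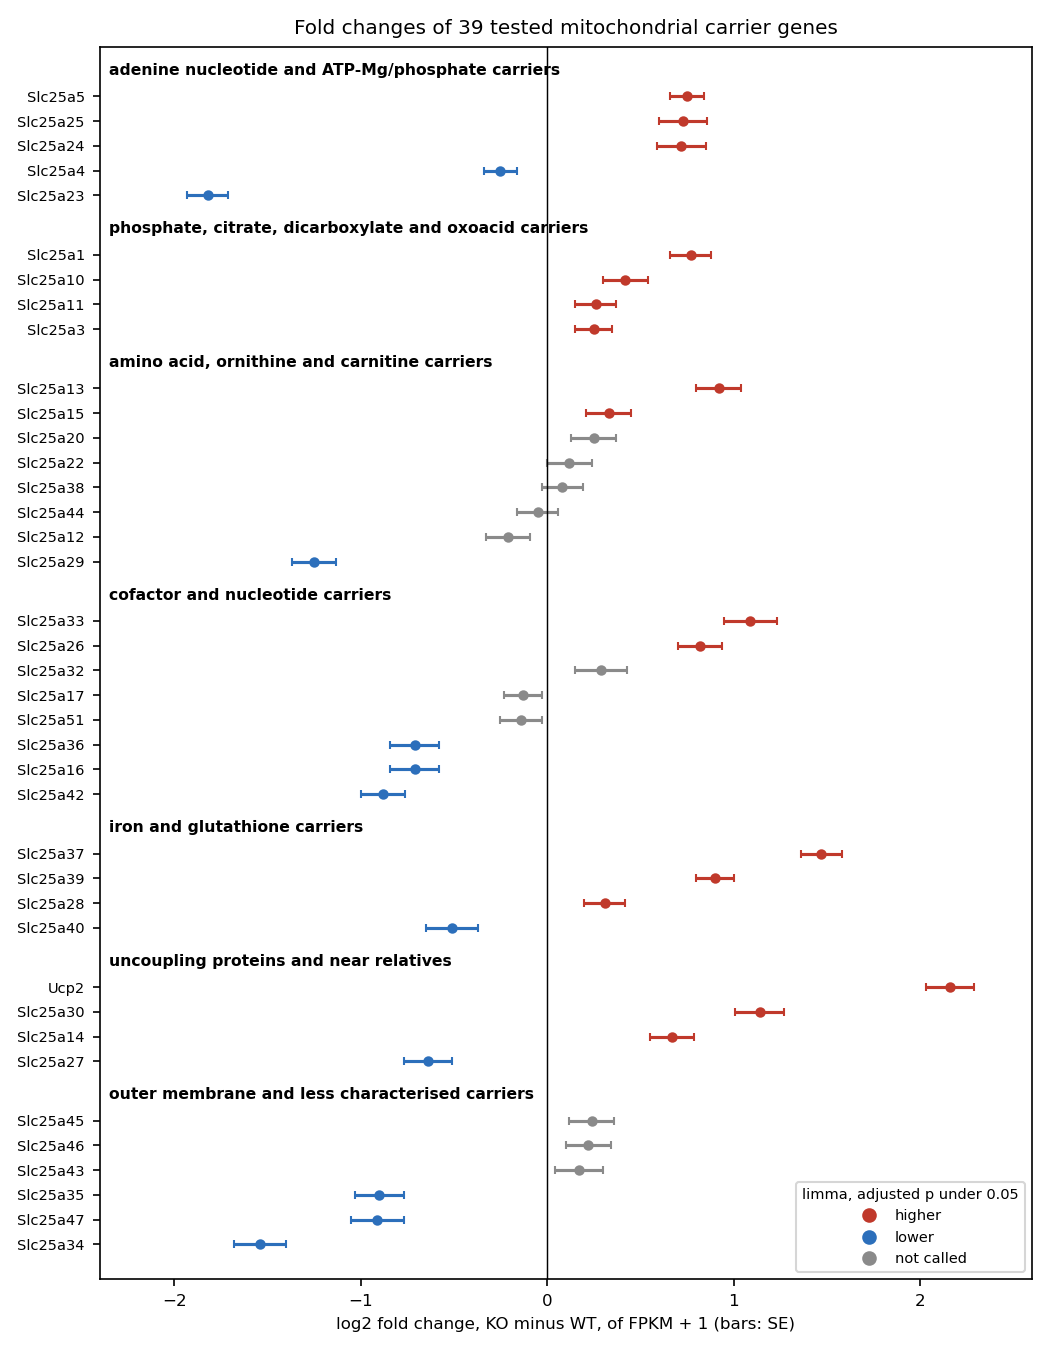
The log2 fold change (KO minus WT, of FPKM + 1) is plotted on the horizontal axis for 39 of the 40 tested carriers, with bars for the limma SE and carriers grouped by substrate. Red marks carriers called higher, blue those called lower and grey those not called; Ucp2 lies farthest to the right at 2.16 and Slc25a23 farthest to the left at -1.82.

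Ucp2 (chr7:100493337-100499629, plus strand, RefSeq on GRCm38.p6) encodes an uncoupling protein relative found in many tissues and abundant in immune cells. It had 40.9 and 33.2 FPKM in KO libraries, against 7.20 and 7.80 FPKM in WT libraries. Both KO libraries lay far above both WT libraries. The log2 fold change was 2.16 ± 0.13 (SE; limma, adjusted p = 5.75e-09), a ratio of means of 4.95. By mean level Ucp2 held rank 6 among the 50 carriers in KO libraries and rank 25 in WT libraries. Macrophage markers summed to 536 and 454 FPKM in KO libraries, against 75.1 and 76.7 FPKM in WT libraries. Leukocyte markers summed to 281 and 229 FPKM in KO libraries, against 29.4 and 27.9 FPKM in WT libraries. The part of these cells in the Ucp2 result was not tested.

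Slc25a37 (chr14:69241848-69285544) encodes mitoferrin 1, which brings iron into the matrix and is used most by red cell precursors. It had 28.8 and 30.6 FPKM in KO libraries, against 9.74 and 10.3 FPKM in WT libraries. The KO libraries were both about 3 times the WT level (ratio of means 2.96), with a log2 fold change of 1.47 ± 0.11 (SE; limma, adjusted p = 7.57e-08). Of 4 erythroid markers tested, none was higher and 1 was lower in KO, where 35.2% of all genes tested were higher and 30.6% lower. With equal totals 4 were lower, where 45.3% of all genes tested were lower. Erythroid markers, tested or not, summed to 101 and 263 FPKM in KO libraries, against 235 and 267 FPKM in WT libraries. The erythroid enzyme Alas2 had 0.812 and 1.35 FPKM in KO libraries, against 1.30 and 1.42 FPKM in WT libraries. The erythroid membrane gene Slc4a1 was under 0.1 FPKM in each library. The part of red cell precursors in the Slc25a37 result was not tested, nor that of macrophages and leukocytes, whose markers were higher in KO libraries.

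Slc25a33 (chr4:149744036-149774267, minus strand) encodes a pyrimidine nucleotide carrier. Its level was 19.4 and 22.7 FPKM in KO libraries, against 7.95 and 10.9 FPKM in WT libraries. The lower KO library was still above the higher WT library, and the log2 fold change was 1.09 ± 0.14 (SE; limma, adjusted p = 1.38e-05). An antisense gene, Gm13068, overlaps 14.9% of its exonic bases in GENCODE M21. The sources used here do not say if strand was used in counting, so reads of the pair may not be told apart.

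Slc25a30 (chr14:75757534-75787037, minus strand) encodes a relative of the uncoupling proteins first described in kidney. It had 5.55 and 6.43 FPKM in KO libraries, against 2.38 and 1.97 FPKM in WT libraries. The log2 fold change was 1.14 ± 0.13 (SE; limma, adjusted p = 4.37e-06).

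Slc25a23 (chr17:57043711-57059909, minus strand) encodes a carrier that exchanges ATP-Mg for phosphate under control of cytosolic calcium. It had 12.4 and 13.7 FPKM in KO libraries, against 48.0 and 49.1 FPKM in WT libraries. Replicates of each genotype were close together, and WT was 3.73 times KO. The log2 fold change was -1.82 ± 0.11 (SE; limma, adjusted p = 7.89e-09). Its rank by mean level was 17 of 50 in KO libraries and 5 of 50 in WT libraries.

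Slc25a34 (chr4:141618819-141623891, minus strand), a carrier whose substrate is less well established, had 6.18 and 8.25 FPKM in KO libraries, against 24.3 and 21.1 FPKM in WT libraries. The log2 fold change was -1.54 ± 0.14 (SE; limma, adjusted p = 4.08e-07). Slc25a29 (chr12:108825878-108835876, minus strand), which carries basic amino acids, had 4.0 and 4.47 FPKM in KO libraries, against 11.5 and 11.4 FPKM in WT libraries. Its log2 fold change was -1.25 ± 0.12 (SE; limma, adjusted p = 8.44e-07). For the 3 genes the KO values were all below the WT values. In the same libraries contractile smooth muscle markers fell by a median of 2.24 on the log2 scale. For comparison with the next counts, 30.6% of all genes tested were lower and 35.2% higher. Of fibroblast markers 8 of 10 were lower and 1 was higher (median -0.97), with sums of 1089 and 1287 FPKM in KO libraries, against 2502 and 2503 FPKM in WT libraries. Of skeletal and cardiac muscle markers 3 of 4 tested were lower and Tnnt2 was higher (median -1.51), with Myh1 and Myh4 listed at 0 in the 4 libraries. Ckm and Actn2, among the 3 lower, passed the filter on low values only through WT libraries and so had to be lower in KO. The part of these cells in the results was not tested.

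**Figure D2:**
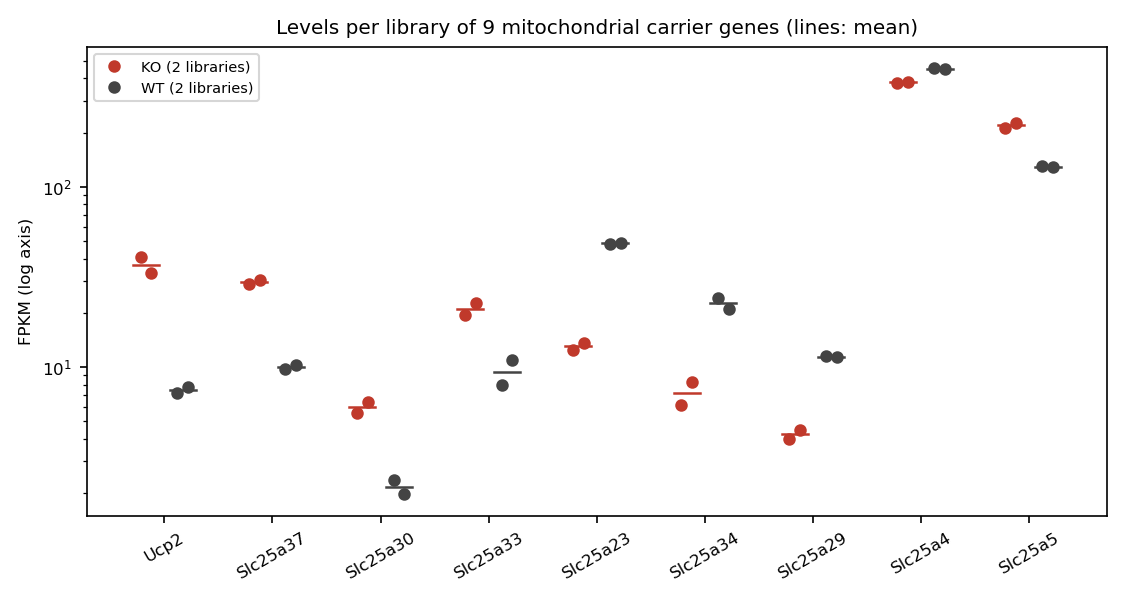
FPKM per library (log axis) is shown for the 7 carriers that changed by at least 1 on the log2 scale and for the translocases Slc25a4 and Slc25a5, with KO points in red left of WT points in grey and lines at the means. No KO point lies within the WT range for any of the 9 genes, and Ucp2 and Slc25a23 are the genes with the widest separation.

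The stretch before the transcription start is shown for Ucp2, Slc25a33, Slc25a30, Slc25a23, Slc25a34 and Slc25a29, because these genes were among those that moved most and the stretch is where transcription factors of stress and growth responses often bind. Sequences are from RefSeq on GRCm38.p6, each on its gene's own strand and 5′ to 3′, and the table used gave a window for 39 of the 50 genes. Capitals mark the CCAAT box (CCAAT), the antioxidant response core (TGACNNNGC) and the E-box (CACGTG), searched on both strands; the amino acid response core (TGATGNAAN) was searched too and is not in these windows. Windows run up to 250 bases before a RefSeq transcript start and were cut where a longer stretch lay inside the annotated gene. Short stretches were left in. The last 21 bases for Ucp2, 10 for Slc25a33 and 7 for Slc25a29 lie inside the gene as annotated in RefSeq or GENCODE M21. The coordinates are chr7:100493108-100493357 for Ucp2 on the plus strand and, on the minus strand, chr4:149774268-149774517 for Slc25a33, chr14:75787038-75787287 for Slc25a30, chr17:57059910-57060113 for Slc25a23, chr4:141623892-141624084 for Slc25a34 and chr12:108835877-108836126 for Slc25a29.
Ucp2: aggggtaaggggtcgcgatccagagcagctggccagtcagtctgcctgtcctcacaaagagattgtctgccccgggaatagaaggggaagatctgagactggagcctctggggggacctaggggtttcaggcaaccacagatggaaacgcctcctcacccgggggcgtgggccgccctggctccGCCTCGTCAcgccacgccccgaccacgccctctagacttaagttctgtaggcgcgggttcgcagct
Slc25a33: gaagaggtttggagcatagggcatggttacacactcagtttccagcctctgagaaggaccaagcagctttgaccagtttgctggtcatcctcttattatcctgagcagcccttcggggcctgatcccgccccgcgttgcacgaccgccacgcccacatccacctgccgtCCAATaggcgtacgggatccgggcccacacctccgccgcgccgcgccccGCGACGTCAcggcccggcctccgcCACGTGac
Slc25a30: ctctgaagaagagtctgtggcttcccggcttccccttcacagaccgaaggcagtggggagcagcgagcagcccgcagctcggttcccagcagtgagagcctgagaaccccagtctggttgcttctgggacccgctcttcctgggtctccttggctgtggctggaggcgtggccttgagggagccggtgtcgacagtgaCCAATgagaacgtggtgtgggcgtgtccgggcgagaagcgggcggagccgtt
Slc25a23: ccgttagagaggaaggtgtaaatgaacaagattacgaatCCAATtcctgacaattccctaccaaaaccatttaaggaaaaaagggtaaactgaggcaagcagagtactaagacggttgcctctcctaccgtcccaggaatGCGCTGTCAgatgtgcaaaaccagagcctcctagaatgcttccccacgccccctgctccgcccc
Slc25a34: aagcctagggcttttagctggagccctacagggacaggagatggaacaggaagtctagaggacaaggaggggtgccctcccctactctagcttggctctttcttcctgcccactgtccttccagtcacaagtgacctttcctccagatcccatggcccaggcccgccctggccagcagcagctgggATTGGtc
Slc25a29: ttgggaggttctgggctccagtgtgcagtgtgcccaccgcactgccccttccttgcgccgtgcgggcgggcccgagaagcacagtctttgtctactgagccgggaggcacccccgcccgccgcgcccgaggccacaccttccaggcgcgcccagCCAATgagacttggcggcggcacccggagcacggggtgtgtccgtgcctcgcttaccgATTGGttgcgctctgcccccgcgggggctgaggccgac

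Among these 6, an antioxidant response core lies before Ucp2, Slc25a33 and Slc25a23, of which Ucp2 and Slc25a33 were higher and Slc25a23 lower in KO. A CCAAT box lies before Slc25a33, Slc25a30, Slc25a23, Slc25a34 and Slc25a29. Slc25a33 is the only one of the 6 with an E-box. That E-box lies a few bases before the RefSeq start but inside the gene as annotated in GENCODE M21. For comparison, of all 32851 windows of 250 bases in the table, 33.8% hold CCAAT, 10.2% hold TGACNNNGC, 6.02% hold CACGTG and 3.44% hold TGATGNAAN. A match is a description of the letters and says nothing of binding.

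The adenine nucleotide translocases exchange ATP made in the matrix for cytosolic ADP and were the most abundant carriers together with the phosphate carrier. Slc25a4 (chr8:46207168-46211062), the form of heart and muscle, had 378 and 382 FPKM in KO libraries, against 454 and 449 FPKM in WT libraries. This was a small fall, with a log2 fold change of -0.25 ± 0.09 (SE; limma, adjusted p = 0.0254); the call ended without WT 1 (adjusted p = 0.161), without WT 2 (adjusted p = 0.129) and without the intensity trend (adjusted p = 0.0636). With equal totals the log2 fold change was -0.51 and still called. Slc25a5 (chrX:36795597-36798808), the form of dividing cells, had 212 and 226 FPKM in KO libraries, against 131 and 128 FPKM in WT libraries. Its log2 fold change was 0.75 ± 0.09 (SE; limma, adjusted p = 9.57e-06), and 0.49 with equal totals or 0.35 after correction for GC and length, both still called. The sum of both genes was 590.0 and 609 FPKM in KO libraries, against 586 and 577 FPKM in WT libraries. Within that sum Slc25a4 made up 64.0% and 62.8% in KO libraries, against 77.6% and 77.8% in WT libraries, a share that library scaling cannot move. The ratio of Slc25a4 to Slc25a5 was 1.78 and 1.69 in KO libraries, against 3.45 and 3.51 in WT libraries. The genotypes did not overlap, and an exact permutation test gave a two-sided p of 0.333, the smallest that 2 libraries against 2 allow. The level of Slc25a5 is uncertain, because 75.2% of its longest transcript lies in runs of 50 bases shared with other annotated transcripts, most of them processed pseudogenes. No such run was found for Slc25a4. Cycling-cell markers summed to 115 and 110.4 FPKM in KO libraries, against 14.4 and 10.5 FPKM in WT libraries, and their part in the Slc25a5 result was not tested. The testis form Slc25a31 is listed at 0 in both KO libraries and at 0.0441 and 0.0521 FPKM in WT libraries.

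The ATP-Mg/phosphate carriers changed in make-up too. Slc25a24 had 14.6 and 17.0 FPKM in KO libraries, against 8.39 and 9.97 FPKM in WT libraries (log2 fold change 0.72, limma adjusted p = 0.00022). Slc25a25 had 6.34 and 7.65 FPKM in KO libraries, against 3.56 and 4.08 FPKM in WT libraries (log2 fold change 0.73, limma adjusted p = 0.000267). Slc25a23 therefore supplied 37.2% and 35.8% of the summed level of these 3 genes in KO libraries, against 80.1% and 77.8% in WT libraries. Slc25a24 supplied 43.8% and 44.3% in KO libraries, against 14.0% and 15.8% in WT libraries. The sum itself was 33.2 and 38.3 FPKM in KO libraries, against 60.0 and 63.1 FPKM in WT libraries. Each of these values separated the genotypes, at the exact permutation p of 0.333. Slc25a41, the relative without calcium control, and Slc25a54 are listed at 0 in the 4 libraries.

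**Figure D3:**
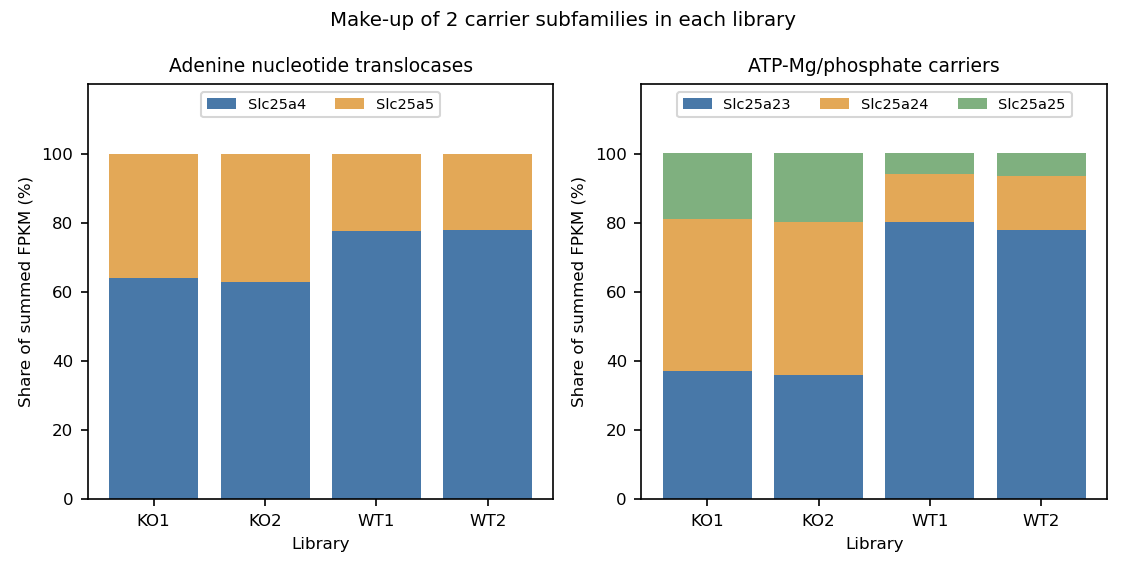
Stacked bars give the share of summed FPKM (%) in each library, KO libraries left of WT libraries, for the adenine nucleotide translocases in one panel and the ATP-Mg/phosphate carriers in the other. Slc25a4 takes 62.8% to 64.0% in KO libraries, against 77.6% to 77.8% in WT libraries, and Slc25a23 takes 35.8% to 37.2% in KO libraries, against 77.8% to 80.1% in WT libraries.

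The phosphate, citrate, dicarboxylate and oxoglutarate carriers were all called higher, 4 of 4 tested, against 35.2% of all genes tested. With equal totals, where 25.3% of all genes tested were higher, only the citrate carrier Slc25a1 was still called. Slc25a1 exports citrate, the source of cytosolic acetyl groups for lipid and sterol synthesis. It had 47.0 and 46.1 FPKM in KO libraries, against 27.9 and 25.7 FPKM in WT libraries, a log2 fold change of 0.77 ± 0.11 (SE; limma, adjusted p = 1.98e-05). Slc25a3, the phosphate carrier that supplies ATP synthase, had 215 and 235 FPKM in KO libraries, against 196 and 181 FPKM in WT libraries. Its log2 fold change was 0.25 ± 0.10 (SE; limma, adjusted p = 0.0348), and -0.0092 with equal totals. The Slc25a3 call also ended without KO 2, WT 1 or WT 2 (limma adjusted p = 0.112, 0.0789 and 0.289). Slc25a11, the oxoglutarate carrier of the malate-aspartate shuttle, had 32.8 and 32.7 FPKM in KO libraries, against 26.4 and 28.3 FPKM in WT libraries. Its log2 fold change was 0.26 ± 0.11 (SE; limma, adjusted p = 0.0467), and the call ended with any 1 library left out (limma adjusted p between 0.0522 and 0.349). The dicarboxylate carrier Slc25a10 had 6.44 and 5.91 FPKM in KO libraries, against 4.20 and 4.51 FPKM in WT libraries (limma adjusted p = 0.00837, but 0.138 with equal totals and 0.0981 without WT 1). The oxoadipate carrier Slc25a21 was too low to test, with 0.0178 and 0.0238 FPKM in KO libraries, against 0.173 and 0.140 FPKM in WT libraries.

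The iron and glutathione carriers, 4 genes, took a larger share of the family's summed level in KO, with 12.8% and 11.4% in KO libraries, against 7.64% and 7.65% in WT libraries. Slc25a39 imports glutathione and was the fourth most abundant carrier in both genotypes. It had 111 and 96.5 FPKM in KO libraries, against 55.9 and 54.3 FPKM in WT libraries, a log2 fold change of 0.90 ± 0.10 (SE; limma, adjusted p = 4.81e-06). Its paralog Slc25a40 went the other way, with 3.71 and 4.39 FPKM in KO libraries, against 5.54 and 6.87 FPKM in WT libraries (log2 fold change -0.51, limma adjusted p = 0.0047). The Slc25a40 call ended without KO 1 (adjusted p = 0.0554) and without WT 2 (adjusted p = 0.0974). Mitoferrin 2, Slc25a28, the widely used iron importer, had 32.8 and 29.7 FPKM in KO libraries, against 25.8 and 24.1 FPKM in WT libraries (log2 fold change 0.31, limma adjusted p = 0.0223, but 0.641 with equal totals, 0.066 without KO 1, 0.0881 without WT 1 and 0.221 without WT 2). The ratio of Slc25a37 to Slc25a28 was 0.877 and 1.03 in KO libraries, against 0.377 and 0.429 in WT libraries, so the red cell type importer stood near the level of the general one in KO libraries and under it in WT libraries.

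Besides Ucp2 and Slc25a30, the uncoupling protein relative Slc25a14 rose, with 5.83 and 5.73 FPKM in KO libraries, against 3.14 and 3.36 FPKM in WT libraries (log2 fold change 0.67, limma adjusted p = 0.000257). Slc25a27, known from neurons, fell to 1.84 and 2.36 FPKM in KO libraries, against 3.57 and 4.09 FPKM in WT libraries (log2 fold change -0.64, limma adjusted p = 0.000791). These opposite directions held with equal totals. The 6 uncoupling genes together made up 3.95% and 3.39% of the family's level in KO libraries, against 1.31% and 1.41% in WT libraries. Most of that difference was Ucp2, which alone made up 2.98% and 2.35% in KO libraries, against 0.567% and 0.624% in WT libraries. Ucp1 was not tested and had 0.176 and 0.134 FPKM in KO libraries, against 0.299 and 0.385 FPKM in WT libraries. The brown fat markers Elovl3, Zic1 and Otop1 were under 0.1 FPKM in each library. Cidea, another gene of brown fat, had 0.711 and 0.585 FPKM in KO libraries, against 7.82 and 13.2 FPKM in WT libraries. It passed the filter on low values only through WT libraries and so had to be lower in KO. Of the 6 brown fat markers tested, Cidea among them, 5 were lower and 1 was higher in KO, against 30.6% and 35.2% of all genes tested. Their part in the Ucp1 values was not tested. The muscle form Ucp3 was under 0.02 FPKM in each library and is listed at 0 in KO 2.

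Among amino acid, ornithine and carnitine carriers, 5 of 8 tested were not called, 2 were higher (Slc25a13 among them) and 1 was lower. These are 25% higher and 12.5% lower, against 35.2% and 30.6% of all genes tested. With equal totals 1 was higher and 3 were lower, against 25.3% and 45.3% of all genes tested. The 5 not called were Slc25a38 (above), the aspartate-glutamate carrier Slc25a12, the glutamate carrier Slc25a22, the branched-chain amino acid carrier Slc25a44 and the carnitine-acylcarnitine carrier Slc25a20. Their log2 fold changes ran between -0.21 and 0.25, with SEs of 0.11 or 0.12. Some were called elsewhere, with Slc25a12 at -0.46 and Slc25a44 at -0.30 with equal totals (limma adjusted p = 0.00199 and 0.0216), Slc25a12 at -0.30 without KO 2 (0.044), Slc25a20 at 0.32 without KO 1 (0.0445), and Slc25a22 at 0.50 after correction for GC and length (0.00128). Slc25a13, the second aspartate-glutamate carrier, also called citrin, had 1.08 and 1.06 FPKM in KO libraries, against 0.0634 and 0.121 FPKM in WT libraries. It is the 1 carrier that passed the filter only through the KO libraries and so had to be higher there, so its values are given as a description. The ratio of means was 11.6, and the log2 fold change was 0.92 with a pseudocount of 1, 2.62 with one of 0.1 and 0.25 with one of 5. Slc25a12 remained the more abundant of the pair, with 13.7 and 15.7 FPKM in KO libraries, against 16.5 and 17.9 FPKM in WT libraries. The ornithine carrier Slc25a15 had 3.16 and 3.35 FPKM in KO libraries, against 2.31 and 2.46 FPKM in WT libraries (limma adjusted p = 0.0296, but 0.304 with equal totals, 0.072 without KO 2, 0.18 without WT 1 and 0.0962 without WT 2). Its paralog Slc25a2 and the second glutamate carrier Slc25a18 were under 0.3 FPKM in each library.

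Of 9 cofactor and nucleotide carriers, 2 were higher, 4 lower and 3 not called, or 22.2% and 44.4%, against 35.2% and 30.6% of all genes tested. With equal totals 2 were higher and 6 lower, against 25.3% and 45.3% of all genes tested. The S-adenosylmethionine carrier Slc25a26 had 7.14 and 7.57 FPKM in KO libraries, against 3.76 and 3.72 FPKM in WT libraries (log2 fold change 0.82, limma adjusted p = 4.55e-05). Slc25a42, which carries coenzyme A, had 2.58 and 2.54 FPKM in KO libraries, against 5.42 and 5.66 FPKM in WT libraries (log2 fold change -0.88, limma adjusted p = 2.47e-05). Slc25a16, also linked to coenzyme A, had 4.26 and 5.14 FPKM in KO libraries, against 8.17 and 8.49 FPKM in WT libraries (log2 fold change -0.71, limma adjusted p = 0.000226). The pyrimidine nucleotide carriers parted, since Slc25a36 had 9.24 and 11.9 FPKM in KO libraries, against 17.2 and 18.4 FPKM in WT libraries (log2 fold change -0.71, limma adjusted p = 0.000291), whereas Slc25a33 rose. The ratio of Slc25a33 to Slc25a36 was 2.10 and 1.91 in KO libraries, against 0.463 and 0.592 in WT libraries. Of the longest Slc25a36 transcript, 16.4% lies in runs of 50 bases shared with the annotated pseudogene Gm13217, so its level is less certain. Slc25a17, a carrier of coenzyme A and other cofactors in peroxisomes and among the 8 most abundant members, had 29.9 and 30.8 FPKM in KO libraries, against 32.4 and 34.1 FPKM in WT libraries, a log2 fold change of -0.13 ± 0.10 (SE; limma, adjusted p = 0.299). It was called lower at -0.38 with equal totals (limma adjusted p = 0.00338) and at -0.49 after correction for GC and length (limma adjusted p = 0.000943). The NAD carrier Slc25a51 (log2 fold change -0.14, limma adjusted p = 0.262) and the folate carrier Slc25a32 (log2 fold change 0.29, limma adjusted p = 0.0786) were not called either. Slc25a51 was called lower with equal totals (-0.40, limma adjusted p = 0.00366). Slc25a32 was called higher after correction for GC and length (0.49, limma adjusted p = 0.00331) and without KO 1 (0.47, limma adjusted p = 0.0142).

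None of the 6 outer membrane and less characterised carriers tested was higher, against 35.2% of all genes tested. Of the 6, 3 were lower (50%, against 30.6%). The counts were the same with equal totals, where 25.3% of all genes tested were higher and 45.3% lower. With length and GC trends removed Slc25a46 was called higher (0.27, limma adjusted p = 0.0343), as it was without KO 1 (0.31, limma adjusted p = 0.0367). Beside Slc25a34, Slc25a35 had 2.04 and 2.31 FPKM in KO libraries, against 4.56 and 5.32 FPKM in WT libraries (log2 fold change -0.90, limma adjusted p = 3.26e-05). The gene Rangrf on the opposite strand overlaps 31.3% of the exonic bases of Slc25a35, so its value is uncertain; Rangrf itself had 31.3 and 30.5 FPKM in KO libraries, against 16.7 and 17.9 FPKM in WT libraries. Slc25a47, known from liver, had 1.94 and 2.13 FPKM in KO libraries, against 4.08 and 5.42 FPKM in WT libraries (log2 fold change -0.91, limma adjusted p = 5.74e-05). The outer membrane protein Slc25a46, involved in mitochondrial fusion, and Slc25a43 and Slc25a45 had log2 fold changes between 0.17 and 0.24 and were not called. Slc25a53 stayed under 0.7 FPKM in each library and Slc25a48 is listed at 0 in the 4 libraries.

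**Figure D4:**
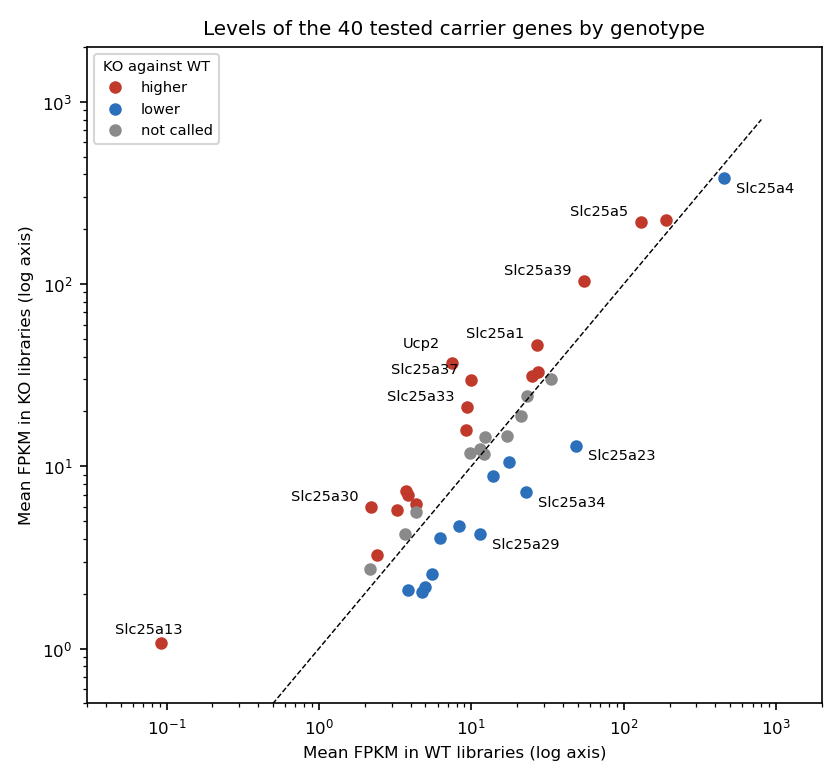
Mean FPKM in KO libraries (vertical, log axis) is plotted against mean FPKM in WT libraries (horizontal, log axis) for the 40 tested carriers, with the dashed line at equality and colours for the limma call. Slc25a23, Slc25a34 and Slc25a29 lie farthest under the line, and Slc25a13, at 0.0921 FPKM in WT libraries, stands apart at the left.

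As a whole the family summed to 1375 and 1411 FPKM in KO libraries, against 1269 and 1249 FPKM in WT libraries, a ratio of 1.11. As a share of all FPKM this was 0.225% and 0.223% in KO libraries, against 0.246% and 0.240% in WT libraries, a ratio of 0.921. The direction of the family's sum thus depends on the scaling, and both separated the genotypes at the exact permutation p of 0.333. Slc25a4, Slc25a5 and Slc25a3 made up 58.5% and 59.8% of the sum in KO libraries, against 61.6% and 60.6% in WT libraries.

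Genes that insert carriers or work beside them were counted in the same fit. For comparison, 35.2% of all genes tested were higher and 30.6% lower, or 25.3% and 45.3% with equal totals. Carrier import genes, which encode the translocases of the outer membrane and the small chaperones and inner membrane complex that insert carriers, were higher for 11 of 12 tested and lower for none, with a median log2 fold change of 0.89, and 10 of 12 were higher with equal totals. Timm10 had 51.7 and 49.3 FPKM in KO libraries, against 11.0 and 13.4 FPKM in WT libraries (log2 fold change 1.97, limma adjusted p = 7.76e-09). Timm8a1 had 32.6 and 30.4 FPKM in KO libraries, against 7.05 and 7.74 FPKM in WT libraries (log2 fold change 1.95, limma adjusted p = 6.47e-09). Timm13 and the pore gene Tomm40 rose by 1.32 and 1.25 on the same scale. ATP synthase subunits were higher for 15 of 16, with a median of 0.42, but for 5 of 16 with equal totals; Atp5g1, which encodes a subunit of the rotor ring, had a log2 fold change of 1.22.

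Other inner membrane transport genes were higher for 10 and lower for 3 of 20, and 7 and 7 with equal totals. They include the calcium uniporter, where Ccdc109b, a uniporter paralog, had 18.3 and 17.6 FPKM in KO libraries, against 1.06 and 1.26 FPKM in WT libraries (log2 fold change 3.14, limma adjusted p = 1.5e-10). The pore gene Mcu had 12.0 and 13.0 FPKM in KO libraries, against 6.07 and 5.57 FPKM in WT libraries (limma adjusted p = 7.73e-06). Its gatekeeper Micu2 had a log2 fold change of 1.02. Outer membrane pores and creatine kinases were higher for 5 and lower for 2 of 9, and 3 and 4 with equal totals. In that list Tspo had a log2 fold change of 1.79, Vdac3 had 123 and 148 FPKM in KO libraries, against 62.5 and 65.1 FPKM in WT libraries, and the creatine kinases Ckm and Ckb had log2 fold changes of -1.85 and -0.99. Ckm passed the filter on low values only through WT libraries and so had to be lower in KO.

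Enzymes that use the carried substrates moved in different directions. One-carbon and serine enzymes were higher for 6 and lower for 1 of 10, and 6 and 3 with equal totals. Psat1 of serine synthesis had 66.8 and 73.9 FPKM in KO libraries, against 3.74 and 3.02 FPKM in WT libraries (log2 fold change 4.03, limma adjusted p = 1.32e-11), and Phgdh, Psph and Shmt2 had log2 fold changes of 2.28, 2.11 and 1.69. Citric acid cycle and malate-aspartate genes were higher for 11 and lower for 3 of 25, but 6 and 8 with equal totals. The cytosolic aspartate aminotransferase Got1 had 24.2 and 25.8 FPKM in KO libraries, against 3.12 and 3.23 FPKM in WT libraries (log2 fold change 2.64, limma adjusted p = 4.7e-10), and Pcx, Sdhb and Mdh2 had log2 fold changes of 0.95, 0.71 and 0.66. Proline, ornithine, glutamate and branched-chain enzymes were higher for 7 and lower for 3 of 13, and 6 and 6 with equal totals. Bcat1 and Odc1 had log2 fold changes of 2.44 and 1.47, and Oat of -0.78. Bcat1, with 0.433 and 0.38 FPKM in WT libraries, passed the filter on low values only through its KO libraries and so had to be higher there. Aldh18a1 of proline synthesis had 38.3 and 42.2 FPKM in KO libraries, against 19.3 and 18.0 FPKM in WT libraries. Carnitine shuttle and fatty acid oxidation genes were higher for 1 and lower for 7 of 17, and 0 and 11 with equal totals. Acadm, Slc22a5, Cpt1b and Acaa2 had log2 fold changes of -0.81, -0.67, -0.63 and -0.61, while the carnitine carrier Slc25a20 was not called (0.25, limma adjusted p = 0.0814).

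Heme and iron-sulfur genes, which use the iron that mitoferrins import, were higher for 9 and lower for 1 of 15, and 4 and 4 with equal totals. The heme-degrading enzyme Hmox1 had 172 and 176 FPKM in KO libraries, against 3.00 and 2.94 FPKM in WT libraries (log2 fold change 5.47, limma adjusted p = 1.53e-13). Glrx5 and Tmem14c had log2 fold changes of 0.69 and 0.61, and Ppox of -0.84. Of 12 mitochondrial biogenesis regulators tested, 3 were higher (Tfb1m, Pparg and Tfb2m, at 0.78, 0.63 and 0.46), 1 was lower (Thra, at -1.31) and 8 were not called. The counts were 2 higher and 2 lower with equal totals, and 5 and 1 after correction for GC and length. Pparg, counted as higher, passed the filter on low values only through its KO libraries and so had to be higher there.

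**Figure D5:**
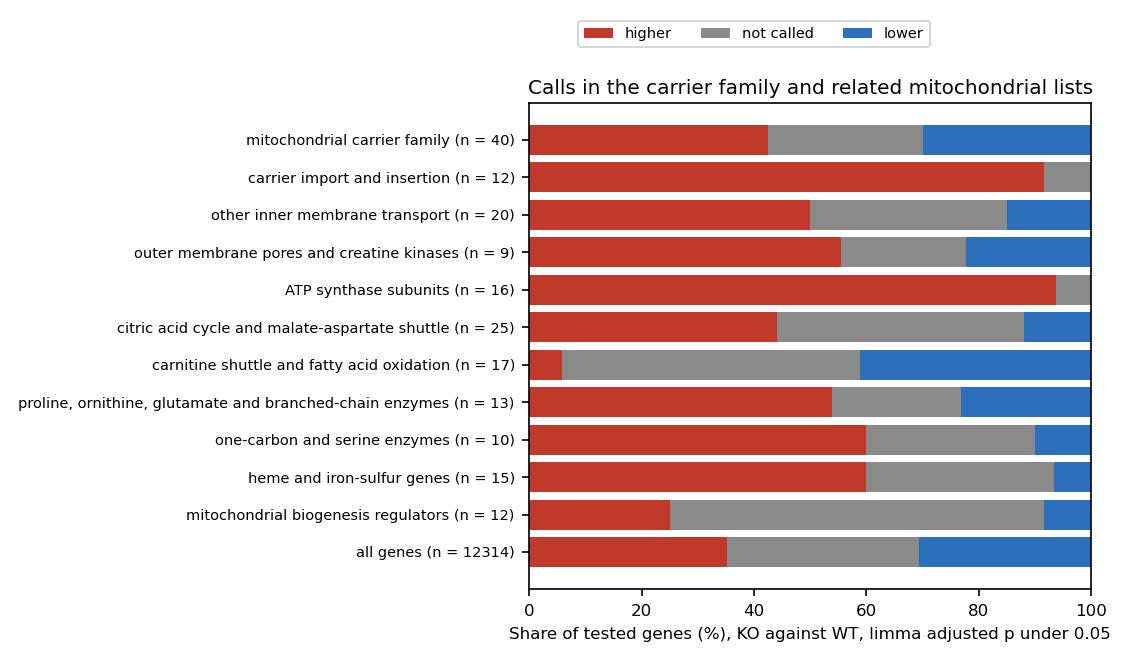
Bars give the share of tested genes (%) called higher (red), not called (grey) and lower (blue) in KO against WT by limma, for the carrier family, 10 related mitochondrial lists and all 12314 genes tested. Higher calls make up 42.5% of the carriers and 35.2% of all genes, and lower calls 30% and 30.6%.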

How the data were processed

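Polyadenylated RNA of aorta was selected with oligo-dT beads and sequenced, per the labels' protocols. The deposited values are FPKM, 1 file per library, per the file headers. Per the submitters' processing notes, the build was mm10 and the tools were DESeq2 1.16.1, featureCounts 1.5.0-p3 and HISAT2 2.0.5, with no step assigned to each. The sources used here do not say if counting used strand. No common step of whole fragments was found among low values (the commonest ratio of 2 libraries' values, over genes under 0.3 FPKM in both, covered at most 0.32% of them), so depth is unknown and no count model was run.

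The carrier genes were taken by symbol, and their members and all gene lists were chosen with earlier results of these data known. log2(FPKM + 1) was tested, KO minus WT, with limma's intensity trend (version 3.58.1, in R 4.3.3) for genes that reached 1 FPKM in 2 or more libraries. Benjamini-Hochberg adjustment ran over all 12314 genes tested, with a threshold of 0.05. A gene that passed this filter only through 1 genotype had to be higher in that genotype, and such genes were kept in the list counts. A fold change on this scale understates the change of low genes. Ratios of means are of FPKM without the pseudocount. With 2 libraries a genotype, p-values reflect only how far these libraries spread, which may be technical; limma draws each gene's variance toward the trend, for 13.4 degrees of freedom. In simulated data the procedure recovered 76 of 100 genes changed by 1 on the log2 scale and 94 of 100 changed by 2. It called 3 unchanged genes among 11747 genes fitted. The simulation changed few genes, equally in both directions, so it does not cover the effect of scaling on these data. Changed genes were drawn only from those with a mean log2(FPKM + 1) of at least 2 in WT libraries. Each gene was given the spread of a gene picked at random from that set. Recovery of lower genes was thus not measured. Shares and sums were tested with an exact permutation test (scipy 1.17.1).

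Values are given for members called with a log2 change of at least 1 and for the 8 most abundant, values or ranges for the rest, and up to 4 called genes by smallest p from other lists. Some genes that this rule names are left out of the text. Members not tested were under 1 FPKM in at least 3 libraries. Sequence sharing and exon overlap were computed from GENCODE M21, windows before the start from RefSeq on GRCm38.p6, the same assembly as mm10. Carriers without a remark on this in the Results can be affected too. Rnf167 on the opposite strand overlaps 8.92% of the exonic bases of Slc25a11, and 21.3% of the longest Slc25a20 transcript lies in shared runs. Gene coordinates are from RefSeq. Protein sequences were not used here.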

Additional observations from a re-analysis of the deposited data

How the results depend on the processing

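The 12 alternatives were equal FPKM totals, pseudocounts of 0.1 and 5, no filter, a filter of 5 FPKM, no intensity trend, robust estimation, removal of length and GC trends (99.3% of tested genes had both), and each library left out, where the lone library is assumed to vary like the other genotype. Of 29 called carriers, 22 kept their call in each alternative that tested them, 12 of the 17 higher (11 of 16 without Slc25a13) and 10 of the 12 lower, Ucp2, Slc25a37, Slc25a33, Slc25a30, Slc25a23, Slc25a34 and Slc25a29 among them. Calls of Slc25a3, Slc25a4, Slc25a10, Slc25a11, Slc25a15, Slc25a28 and Slc25a40 ended in at least 1 alternative, and the cause was not tested. Of 472 carrier values, 422 kept direction and call, 27 lost the call, 12 gained one and 11 changed sign. Calls over all genes numbered 4332 higher and 3764 lower, against 3116 and 5580 with equal totals.

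The median log2 fold change of tested carriers, 0.23, was -0.02 with equal totals, 0.14 with a pseudocount of 5, 0.10 without a filter and 0.13 with length and GC trends removed, and between 0.17 and 0.25 with 1 library left out. The ratio of the summed family level, 1.11, was 0.921 with equal totals and 1.17 without Slc25a4 and Slc25a5. With equal totals the log2 fold changes of carriers that changed sign were -4.3e-06 for Slc25a11, -0.0092 for Slc25a3, -0.13 for Slc25a22, -0.18 for Slc25a38, -0.039 for Slc25a43 and -0.029 for Slc25a46. With length and GC trends removed they were 0.044 for Slc25a12, -0.11 for Slc25a38, -0.16 for Slc25a43 and 0.0069 for Slc25a44. Slc25a38 ran between -0.01 and 0.16 with 1 library left out. No paired analysis was possible because the replicate numbers are names only. Depth is unknown and limits the genes under 1 FPKM most.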

Other observations

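Over all windows before carrier starts, 8 of 49 (16.3%) held the E-box CACGTG, against 6.02% of all 32851 windows in the table. They lie before 7 genes, of which Slc25a1, Slc25a14, Slc25a15 and Slc25a33 were called higher in KO, Slc25a13 was tested only through its KO values, Slc25a36 was called lower and Slc25a31 was not tested. The antioxidant response core TGACNNNGC was in 10 of 49 windows (20.4%), against 10.2% of all windows, and CCAAT in 21 of 49 (42.9%), against 33.8%. The amino acid response core TGATGNAAN was in 0 of 49, against 3.44%. Windows of 1 gene overlap in part, some windows reach into the annotated gene, and no test was made of these shares.

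Some carriers lie side by side in GENCODE M21. On chromosome 12, Slc25a29 and Slc25a47 are annotated head to head on opposite strands with 162 bases between them, and both were called lower in KO; RefSeq places the start of Slc25a47 farther away, at 108849833. Slc25a23, which fell, lies 2056 bases from Slc25a41, which is listed at 0 in the 4 libraries. Slc25a24, which rose, lies 6461 bases from Slc25a54, also listed at 0. Ucp2, which rose, lies 6904 bases from Ucp3, which was under 0.02 FPKM in each library.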
